A study of Rattus norvegicus with 6 samples.

Results

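The distal miRNA cluster of the imprinted Dlk1-Dio3 region, which runs from miR-379 to miR-410, was examined in cardiac fibroblasts of newborn Wistar rats and in the exosomes that these cells released. Members were chosen by name alone, both arms of a hairpin counting separately. Of 728 mature miRNAs listed, 63 belonged to the cluster. They came from 33 hairpins, of which 30 had both arms listed. Exosomes are small membrane vesicles that cells release and that carry RNA. The fibroblasts came from hearts of rats aged 1 to 2 days and were grown with 10% serum. Exosomes were collected by ultracentrifugation of medium that cells had conditioned for 48 h with 1% serum cleared of exosomes. The same 48 h with 1% serum are listed for the fibroblast libraries. Each group held 3 libraries, fibroblasts 1, 2 and 4 and exosomes 1 and 2 with a further library whose column carried no number and is called unnumbered here. No treatment or genetic change is named in the labels for either group. The labels do not say whether the libraries of a group came from separate cultures, so the tests speak of the spread among these libraries, which may be technical.

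MiRNAs are short RNAs that pair with messenger RNAs through their seed, the bases 2 to 8, and lower the output of those messengers. They are cut from a hairpin that yields a 5p and a 3p arm, and one arm is usually loaded into the silencing complex while the other is degraded. The miR-379/miR-410 hairpins are made from the maternal chromosome, from long noncoding transcripts, and the cluster is known from embryonic tissue, brain, muscle and mesenchymal cells.

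The RefSeq table of the GRCr8 assembly held all 63 members, on chromosome 6 between 134543460 and 134579828, a span of 36.4 kb. In it 60 members lay on the plus strand and 3 on the minus strand, the arms of miR-299b and miR-409b, which are antisense to miR-299a and miR-409a. The count files carry no coordinates and were made with another build, rn5. The sequences below come from that table, written 5′ to 3′ with the seed in capitals. Both arms of miR-379, the first hairpin of the cluster, are shown with the closely related miR-411-5p.
miR-379-5p: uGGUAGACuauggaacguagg
miR-379-3p: cUAUGUAAcaugguccacuaac
miR-411-5p: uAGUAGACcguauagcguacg

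The miR-376 hairpins, neighbours within the cluster, are shown because their arms are compared below. Each 3p arm carries its own seed, and the 5p arms of miR-376b and miR-376c share one.
miR-376a-3p: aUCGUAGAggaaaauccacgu
miR-376b-3p: aUCAUAGAggaacauccacuu
miR-376c-3p: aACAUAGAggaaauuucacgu
miR-376a-5p: gGUAGAUUcuccuucuaugag
miR-376b-5p: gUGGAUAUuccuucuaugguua
miR-376c-5p: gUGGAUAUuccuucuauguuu

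The miR-299 arms are shown because they overlap in sequence. The longest run shared by miR-299a-5p and miR-299b-5p was 19 bases, and the 17 bases listed for miR-299b-3p all lay within miR-299a-3p, so that reads of these pairs may be split or shared between entries.
miR-299a-5p: uGGUUUACcgucccacauacau
miR-299b-5p: cGGUUUACcgucccacauac
miR-299a-3p: uAUGUGGGacgguaaaccgcu
miR-299b-3p: uAUGUGGGacgguaaac

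The remaining sequences are those of the leading members of each group, of 3 members lower in exosomes, of miR-154-3p, which was higher, and of miR-410-3p, the partner arm of miR-410-5p. The seed GGUUGUC was shared by miR-410-5p, miR-494-5p and miR-496-5p.
miR-494-3p: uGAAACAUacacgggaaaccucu
miR-412-5p: uGGUCGACcagcuggaaagu
miR-668: uGUCACUCggcucggcccacuacc
miR-154-3p: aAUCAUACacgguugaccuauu
miR-410-5p: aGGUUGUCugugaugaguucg
miR-410-3p: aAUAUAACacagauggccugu
miR-487b-3p: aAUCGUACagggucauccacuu
miR-134-3p: cUGUGGGCcaccuagucaccaa

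The exosome libraries were shallow, with total miRNA counts from 113129 to 120224, against 2439559 to 12508651 in fibroblasts. Without miR-873-3p, a single miRNA that took up most exosome counts, the exosome totals were 18164, 14338 and 11825. All 7 miRNAs listed as fibroblast markers, miR-143-3p and miR-21-5p among them, were lower in exosomes, and they made up 52.3% to 54.3% of fibroblast counts and 1.17% to 13.7% of exosome counts without miR-873-3p. The 6 cardiomyocyte markers summed to at most 0.0172% in fibroblasts and 0.0771% in exosomes on the same base; miR-1-3p had 28, 165 and 4 fibroblast counts. In fibroblast library 2 every miRNA had at least 53 counts, while the lowest counts in fibroblast libraries 1 and 4 were 6 and 0. PCR copies are not independent molecules, so the intervals and floors given here cover counting error and nothing else.

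The cluster as a whole took up a small part of the fibroblast miRNAs. Its summed counts were 39331, 113410 and 17343 in fibroblast libraries 1, 2 and 4, or 0.617%, 0.907% and 0.711% of all counts (95% Clopper-Pearson intervals 0.611 to 0.623, 0.901 to 0.912 and 0.700 to 0.722). In exosome libraries 1, 2 and unnumbered the sums were 1710, 1370 and 682, or 1.42%, 1.21% and 0.573% (intervals 1.36 to 1.49, 1.15 to 1.28 and 0.531 to 0.618). These shares overlapped between groups, the mean being 1.07% ± 0.442 for exosomes against 0.745% ± 0.148 for fibroblasts (SD, n = 3 each; p = 0.4, exact permutation test, two-sided). With miR-873-3p left out of the total the exosome shares were 9.41%, 9.56% and 5.77% (intervals 8.99 to 9.85, 9.08 to 10.0 and 5.35 to 6.203) and the fibroblast shares 0.625%, 0.910% and 0.728%. All exosome libraries then lay above all fibroblast libraries, with means of 8.25% ± 2.15 and 0.754% ± 0.145 (SD, n = 3 each; p = 0.1, exact permutation test, two-sided, which is the lowest p of a design of 3 against 3). The proximal miRNAs of the same region, described below, also lay apart on this base, at 3.16% to 6.71% in exosomes and 0.371% to 1.16% in fibroblasts. With libraries scaled by this total, 54.3% of all miRNAs tested were called higher in exosomes (fits below). A share of counts cannot tell fewer RNA-bearing cells or vesicles from less RNA in each. The fibroblast libraries held 63 of 63 members, and the exosome libraries 58, 59 and 53.

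In fibroblasts 1 member stood above the rest. Levels are given as CPM, counts relative to library size, scaled between libraries by the trimmed mean of M values (TMM); they are not divided by length, and the mature sequences are 17 to 25 bases long. MiR-668 reached 2063, 849 and 3792 CPM in fibroblast libraries 1, 2 and 4, a mean of 2235 ± 1479 (SD, n = 3), and ranked 39 of all 728 miRNAs. The lowest of these values, in library 2, was still above the highest value of any other member in fibroblasts. The members ranked below miR-668 were miR-323-5p at 428 ± 325 CPM, miR-667-5p at 401 ± 189, miR-376a-5p at 280.0 (its values follow below) and miR-134-3p at 270 ± 149 (mean ± SD, n = 3 each), and these neighbours did not differ beyond their spread. MiR-410-5p at 238 ± 251 CPM, miR-485-5p at 196 ± 44.1 and miR-412-5p at 180 ± 83.4 came next (SD, n = 3 each), again within each other's spread. MiR-410-5p varied widely, with 526, 124 and 65.2 CPM in fibroblast libraries 1, 2 and 4. Its partner arm miR-410-3p, usually described as the guide of this hairpin, had 59.95, 122 and 40.9 CPM.

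The order was different in exosomes. MiR-494-3p led with 842, 1426 and 3027 CPM in exosome libraries 1, 2 and unnumbered, a mean of 1765 ± 1131, followed by miR-412-5p at 1574 ± 875, miR-668 at 1357 ± 389, miR-323-5p at 729 ± 47.1 and miR-379-5p at 680 ± 457 (SD, n = 3 each). The first 3 overlapped one another. MiR-376a-3p at 465.6 ± 356, miR-299a-3p at 333 ± 238 and miR-485-5p at 299 ± 192 CPM completed the 8 most abundant members of exosomes. Of these 8, miR-668, miR-323-5p, miR-485-5p and miR-412-5p were also among the 8 most abundant in fibroblasts. Across all 63 members the rank correlation of mean exosome and mean fibroblast CPM was 0.61 (Spearman, a description; the points share libraries and scaling), and over all other listed miRNAs it was 0.69.

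The make-up of the cluster within a library does not depend on scaling between libraries or on miR-873-3p. MiR-668 held 32.4%, 18.6% and 42.3% of the cluster counts in fibroblast libraries 1, 2 and 4 and 16.7%, 12.3% and 7.48% in exosome libraries 1, 2 and unnumbered. MiR-494-3p held 2.16%, 1.97% and 1.08% in fibroblasts against 7.95%, 13.3% and 22.9% in exosomes. MiR-412-5p held 2.75% ± 1.01 in fibroblasts and 13.2% ± 5.50 in exosomes, and miR-379-5p 0.312% ± 0.117 and 5.65% ± 3.03 (SD, n = 3 each). Neither of these members overlapped between groups. Together with miR-411-3p and miR-369-5p, 5 members had every exosome share above every fibroblast share. For 9 members every exosome share lay below: miR-668, miR-667-5p, miR-134-3p, miR-376a-5p, miR-376c-5p, miR-381-5p, miR-410-5p, miR-487b-3p and miR-299b-3p. The other 49 overlapped. With every listed miRNA set over the cluster counts of its library in the same way, 5.22% of the 728 had all exosome values above and 37.2% had them below. Shares within a sum are tied to one another, so that a rise of some lowers the rest.

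**Figure D1:**
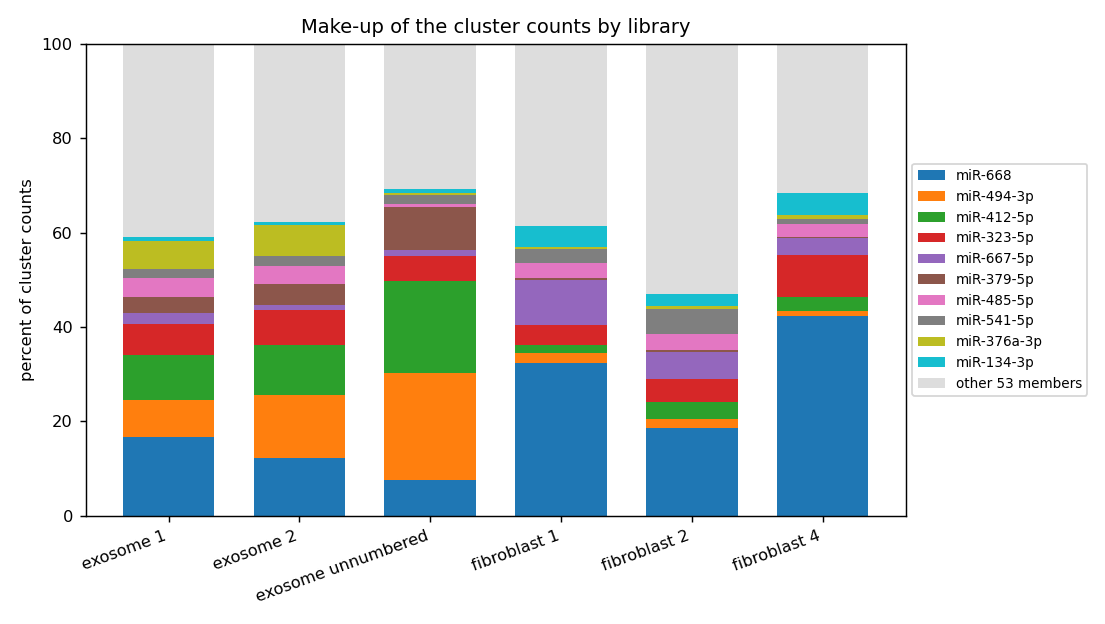
Each bar is 1 library and shows the percent of all cluster counts held by the 10 members with the largest mean shares and by the other 53 members. MiR-668 is the largest named part of each fibroblast bar and, at 16.7%, of the bar of exosome library 1. MiR-494-3p and miR-412-5p are larger in the exosome bars than in the fibroblast bars and reach 22.9% and 19.5% in the unnumbered exosome library.

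The question of the study, which miRNAs differ in abundance between exosomes and their parent cells, was then put to each member. In the test over all miRNAs 14 members were higher and 4 were lower in exosomes, and 43 were not called (edgeR's quasi-likelihood test, Benjamini-Hochberg adjusted p under 0.05 over all 698 miRNAs tested). Over all miRNAs tested 11.3% were called higher and 18.6% lower, 29.9% in all, and of the cluster members tested 23.0% and 6.56%. The median log2 fold change, exosome over fibroblast, was 0.83 for the cluster and -0.15 for all tested. Of the 63 members 61 passed the count filter; miR-299b-3p and miR-376b-5p did not. Of the 61, 13 were below the filter's level in at least 1 fibroblast library and passed with the help of their exosome reads, among them miR-299b-5p, miR-369-5p and miR-376c-3p of the 14 higher members. The exosome and fibroblast CPM did not overlap for 19 of the 61, exosomes being above in 13 and below in 6, where 39.3% of all tested did not overlap, 14.6% with exosomes above and 24.6% with exosomes below.

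These counts rest on the scaling between libraries. With total counts in place of TMM, 8 members were higher and 3 lower. With libraries sized by the reads that matched no listed miRNA the counts were 7 and 6, and with total counts without miR-873-3p they were 45 and 0. For all tested miRNAs the median log2 value went from -0.15 to -0.57, -1.14 and 2.37 in these fits, and that of the members from 0.83 to 0.48, -0.17 and 3.41. A change of scaling moves all miRNAs of a library alike, so the order of the medians could hardly change and is no check. The percent of all miRNAs called higher and lower was 6.16% and 17.3%, 4.54% and 34.7%, and 54.3% and 5.17%. Of the 14 higher members 8, 7 and 14 were still called in these fits, and of the 4 lower 3, 4 and 0. Without exosome library 2 the count of higher members was 9, where 6.35% of all tested were called higher. In the authors' deposited table, made with DESeq, 0 of the 63 members had an adjusted p under 0.05; the unadjusted p was under 0.05 for 1, miR-487b-3p, lower in exosomes. That table called 0 miRNAs higher and 7.28% of all 728 lower.

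**Figure D2:**
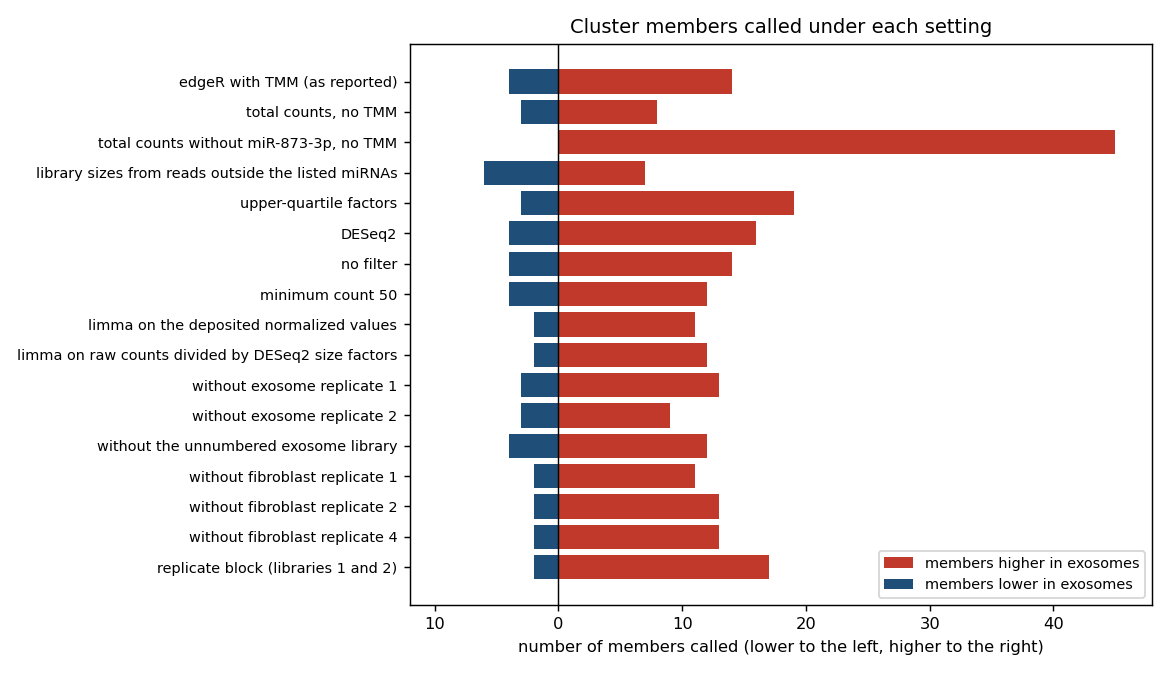
Bars give the number of cluster members called higher (right) and lower (left) in exosomes under each setting. The counts of higher members lie between 7 and 19 except with total counts without miR-873-3p, where 45 are called higher and 0 lower.

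Under all 16 other settings 4 of the higher members kept their call, miR-379-5p, miR-494-3p, miR-412-5p and miR-376a-3p. MiR-379-5p, the 5p arm of the hairpin that opens the cluster, had 58, 61 and 62 counts in exosome libraries 1, 2 and unnumbered and at least 38 in each fibroblast library. These are 359, 478 and 1203 CPM in exosomes against 17.3, 20.2 and 19.7 CPM in fibroblast libraries 1, 2 and 4, a mean of 680 ± 457 against 19.1 ± 1.53 (SD, n = 3 each). Every exosome value lay well above every fibroblast value. The difference was 35.0-fold (log2 5.13, SE 0.78, edgeR adjusted p = 4.1e-08), and the log2 value lay between 3.87 and 7.42 over the other settings. Its raw exosome counts were nearly equal in the 3 libraries, and the high CPM of the unnumbered library follows from its small scaled size, where 1 read is worth 19.4 CPM against 6.19 and 7.84 in exosome libraries 1 and 2.

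MiR-494-3p, a miRNA studied in heart and vessel injury, had 474 exosome counts in all, 182 and 156 of them in exosome library 2 and the unnumbered library, and 849, 2237 and 187 fibroblast counts. On the CPM scale the exosome values given above stood against 138, 89.9 and 96.8 in fibroblasts, without overlap. The difference was 16.2-fold (log2 4.02 with SE 0.90 and an adjusted p of 0.00014 by edgeR), with log2 values from 2.73 to 6.41 over the other settings. MiR-412-5p had 161, 146 and 133 exosome counts and 647, 4091 and 521 fibroblast counts, and its CPM were 997, 1144 and 2581 against 105, 164 and 270. It was 8.73-fold higher without overlap (log2 3.13 with SE 0.86 and an adjusted p of 0.0018 by edgeR), with a range of 1.95 to 5.54 over the other settings. Like miR-379-5p, both had nearly as many raw reads in the unnumbered library as in the others.

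MiR-376a-3p had 101, 91 and only 3 counts in exosome libraries 1, 2 and unnumbered and 170, 706 and 157 in fibroblasts. The unnumbered library, at 58.2 CPM, lay inside the fibroblast range of 27.5 to 81.2 CPM, while exosome libraries 1 and 2 reached 626 and 713. The fitted difference was 10.5-fold (log2 3.40, SE 0.69, edgeR adjusted p = 2.3e-05), with log2 values from 2.50 to 6.35 over the other settings. A-to-I editing of miR-376 seeds is known from other tissues, and edited reads were not looked at here.

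The sister arms of the miR-376 family repeated this pattern in part. MiR-376c-3p had 24, 25 and 0 exosome counts against 41, 282 and 15 in fibroblasts, a 14.5-fold difference (log2 3.86, SE 0.64, edgeR adjusted p = 7.5e-07). The unnumbered library held none, which allows up to 3 counts or 0.00252% of its total, and overlap of the groups rests on it. With limma, on the normalized values or on scaled raw counts, this member was not called (adjusted p up to 0.058). MiR-376b-3p had 6, 12 and 10 exosome counts against 138, 872 and 27 and was 4.04-fold higher without overlap (log2 2.02 with SE 0.64 and an adjusted p of 0.0080 by edgeR). That call ended in 7 of 16 settings, among them without exosome library 2, without the unnumbered library and without fibroblast libraries 1 and 4, and the adjusted p ran from 3.2e-05 to 0.52 over all of them. MiR-376a-5p went the other way, with 4, 8 and 3 exosome counts against 758, 1662 and 1257. Exosome libraries 1, 2 and unnumbered held 24.8, 62.7 and 58.2 CPM of it, against 123, 66.8 and 650 CPM for fibroblast libraries 1, 2 and 4, a 6.02-fold lower level (log2 -2.59 with SE 0.71 and an adjusted p of 0.0020 by edgeR) that was not called without fibroblast library 4, in either limma fit or in a fit that blocks on the replicate number. MiR-376c-5p had 1, 1 and 0 exosome counts and 141, 511 and 16 in fibroblasts, with a log2 value of -1.59 (SE 1.27) that was not called. MiR-376b-5p had 0, 1 and 1 exosome counts and did not pass the filter.

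The miR-299 and miR-154 arms were also called higher. MiR-299a-3p had 77, 59 and 3 exosome counts against 181, 880 and 140, and was 7.59-fold higher (log2 2.92 with SE 0.65 and an adjusted p of 0.00010 by edgeR), a call that limma on the normalized values did not make (adjusted p = 0.053). The unnumbered library, at 58.2 CPM, again lay within the fibroblast range. MiR-299b-5p had 22, 12 and 0 exosome counts against 39, 108 and 10 and a fitted log2 value of 4.03 (SE 0.72). The reads behind the authors' normalized table held 2 of its 34 exosome counts, and limma on that table gave a log2 value of 0.27 (adjusted p = 0.59), so its level in exosomes is uncertain. The shared run of 19 bases with miR-299a-5p shown above bears on the same entry; its part was not tested. MiR-154-3p, of a hairpin studied in fibrosis, had 48, 46 and 4 exosome counts against 168, 803 and 146, and its groups were separated only narrowly, the lowest exosome value being 77.6 CPM and the highest fibroblast value 75.5. It was 5.70-fold higher (log2 2.51 with SE 0.62 and an adjusted p of 0.00058 by edgeR), and without exosome library 2 the adjusted p was 0.054. MiR-154-5p had 19, 5 and 10 against 84, 444 and 64 and was 5.15-fold higher without overlap (log2 2.36, SE 0.63), but it was not called with total counts (edgeR adjusted p = 0.21) or with libraries sized by reads that matched no listed miRNA (0.18).

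The remaining higher members were miR-380-3p, miR-411-3p, miR-382-5p and miR-369-5p. MiR-380-3p had 38, 21 and 20 exosome counts against 333, 2222 and 54 and was 4.45-fold higher (log2 2.15, SE 0.62). MiR-411-3p had 14, 20 and 5 against 79, 533 and 70 and was 4.94-fold higher (log2 2.30, SE 0.62), which was not called without exosome library 2. MiR-382-5p had 6, 7 and 8 against 90, 402 and 34 (log2 2.18, SE 0.71), and was not called without exosome library 2 or without the unnumbered library. MiR-369-5p, the least read of the 14, had 7, 5 and 1 against 28, 123 and 11 (log2 2.85, SE 0.95), and was not called without exosome library 1 or 2. None of these overlapped between groups in CPM. For miR-369-5p this carries no weight, since it passed the filter with the help of its exosome reads. Its value in the unnumbered library rests on 1 read. With total counts none of these 4 was called, the edgeR adjusted p being 0.25, 0.17, 0.43 and 0.21 in this order. With libraries sized by reads that matched no listed miRNA the first 3 were not called either (0.24, 0.11 and 0.34), and miR-369-5p did not pass the filter. MiR-411-5p, whose sequence resembles miR-379-5p, had 14, 17 and 24 exosome counts against 292, 3375 and 133, and it missed the threshold (log2 1.34 with SE 0.62 and an adjusted p of 0.090 by edgeR).

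**Figure D3:**
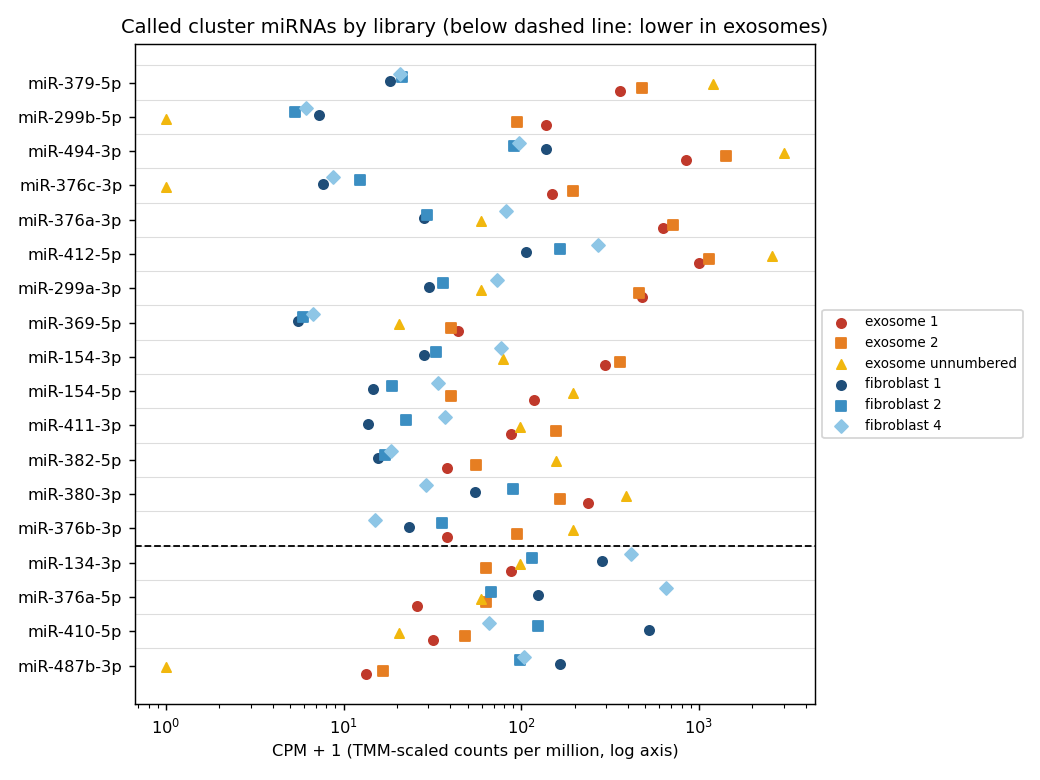
Each point is 1 library, on a log axis of TMM-scaled CPM plus 1, for the 18 called members, the 4 lower ones below the dashed line. Fibroblast points of miR-379-5p sit together between 17.3 and 20.2 CPM and far left of the exosome points, whereas the unnumbered exosome library falls among or below the fibroblast points of miR-376a-3p, miR-299a-3p, miR-376c-3p and miR-299b-5p.

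The 4 lower members were more abundant in fibroblasts, with a median of 254 CPM there against 23.6 CPM for the 14 higher ones. MiR-487b-3p had 2, 2 and 0 exosome counts and 1017, 2419 and 199 fibroblast counts, a 10.6-fold lower level (log2 -3.41 with SE 0.82 and an adjusted p of 0.00041 by edgeR). MiR-410-5p, from the last hairpin of the cluster, had 5, 6 and 1 against 3244, 3086 and 126 a 6.92-fold lower level (log2 -2.79 with SE 0.72 and an adjusted p of 0.00096 by edgeR). MiR-134-3p had 14, 8 and 5 against 1745, 2851 and 796, a 3.34-fold lower level (log2 -1.74 with SE 0.67 and an adjusted p of 0.033 by edgeR). That call held in only 7 of 16 other settings. It ended in the fits without exosome library 1, without exosome library 2 and without fibroblast library 4. It also ended with total counts, upper-quartile factors, both limma fits and the block on replicate number. With total counts without miR-873-3p the direction turned, as given below. All 4, miR-376a-5p included, had no overlap between groups in CPM. A scarce miRNA can hardly be called lower here: over the exosome group 3 counts equal 8.81 CPM, and miR-299b-3p, at 0 in all exosome libraries, had only 4.02 CPM in fibroblasts. With total counts without miR-873-3p, miR-134-3p and miR-376a-5p turned to log2 values of 1.08 and 0.40, neither of them called.

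The 43 members not called had log2 values from -1.59 to 1.74, 31 above and 12 below 0. Among them were the abundant miR-668, with 285, 168 and 51 exosome counts against 12732, 21124 and 7328 (log2 -0.72, SE 0.93, edgeR adjusted p = 0.62), and miR-323-5p, with 114, 100 and 36 against 1646, 5350 and 1549 (log2 0.77, SE 0.74). MiR-134-5p, the arm known from dendritic spines of neurons, had 17, 7 and 8 against 225, 1649 and 63, short of the threshold (log2 1.14 with SE 0.61 and an adjusted p of 0.16 by edgeR). MiR-410-3p had 14, 12 and 11 against 370, 3033 and 79 (log2 0.72, SE 0.61) and miR-485-5p 69, 50 and 4 against 1247, 3727 and 459 (log2 0.65, SE 0.64). MiR-667-5p stood at 229, 133 and 155 CPM in exosomes and 616, 263 and 323 in fibroblasts, without overlap but short of the threshold (log2 -1.20 with SE 0.68 and an adjusted p of 0.19 by edgeR).

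**Figure D4:**
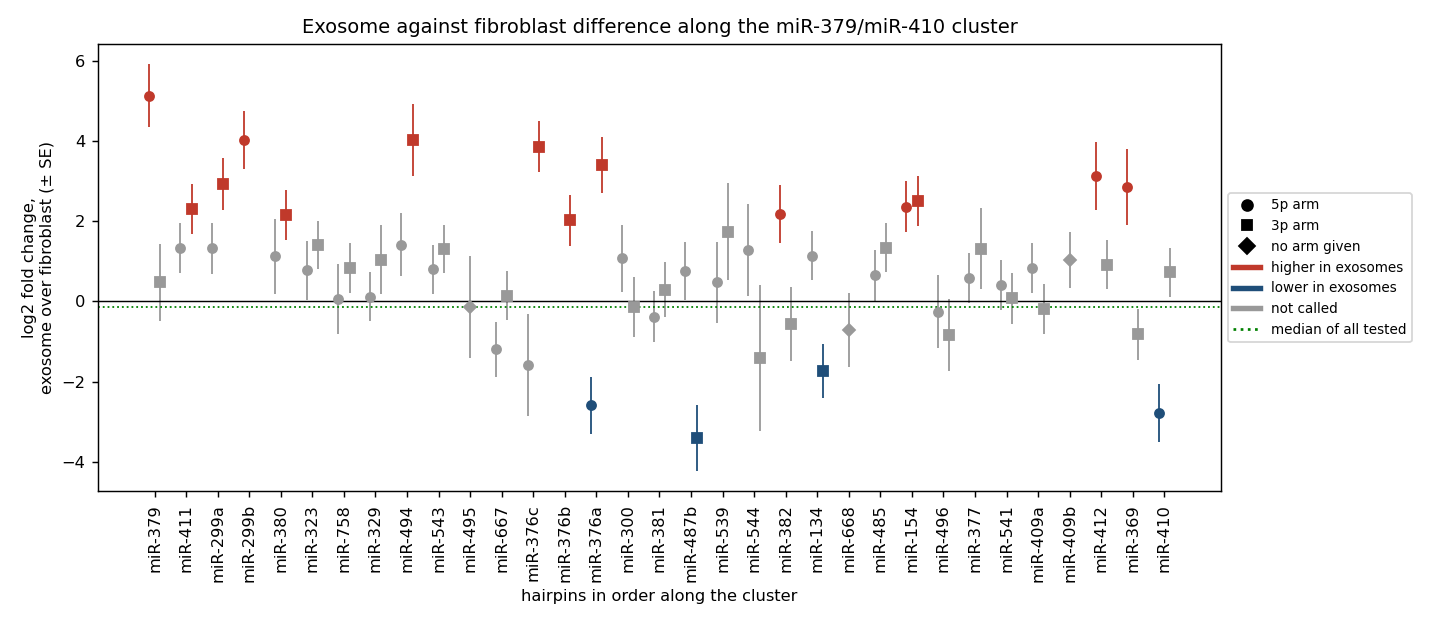
Log2 fold change (exosome over fibroblast) with its SE for the 61 tested members, with hairpins in their order along the cluster and arms marked by shape. Higher members occur from miR-379 at the start to miR-369 next to the end, the 4 lower ones lie between miR-376a and miR-410, and the dotted line is the median of all tested miRNAs, -0.15.

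Along the cluster the called members did not form a single block. With hairpins numbered from 1 at miR-379 to 33 at miR-410, the higher members ran from 1 to 32 and the lower ones from 15 to 33. The rank correlation of log2 fold change with this order was -0.28 over the 61 tested members, with GC content -0.05 and with length -0.10 (Spearman, descriptions; arms of 1 hairpin share a precursor). The median log2 fold change was 0.80 for the 29 tested 5p arms and 0.91 for the 29 tested 3p arms of the cluster, against -0.29 and -0.23 for other 5p and 3p arms. In level terciles of mean CPM over all libraries, 3 of 22, 4 of 20 and 7 of 19 members were higher from the lowest to the highest, where 6.01%, 12.5% and 15.5% of all tested were; 0, 1 and 3 were lower, where 3.00%, 7.76% and 45.1% of all tested were. The sequence motif GGAG, described in other cells for RNA sorted into exosomes, was searched on the mature strand and stood in 2 of 63 members (3.17%) and in 7.79% of all 655 listed miRNAs with a sequence. CCCU stood in 3 members (4.76%) and in 9.47% of all. None of the 18 called members held either of these motifs.

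Because the arms of a hairpin are cut from 1 precursor, their ratio within a library is free of scaling between libraries. The ratio of 5p to 3p counts differed between exosomes and fibroblasts for 9 of 28 member hairpins with both arms past the filter (edgeR's diffSpliceDGE, Benjamini-Hochberg adjusted p under 0.05 over 248 hairpins), or 32.1%, close to the 33.5% of all hairpins. MiR-379 counts were 93.5%, 100% and 95.4% from the 5p arm in exosome libraries 1, 2 and unnumbered and 61.5%, 44.7% and 62.3% in fibroblast libraries 1, 2 and 4 (log2 change of the ratio 4.66, adjusted p = 0.00019 by edgeR). The 3p arm itself was not called (log2 0.47), with 4, 0 and 3 exosome counts. MiR-376a was 3.81%, 8.08% and 50% 5p in exosomes against 81.7%, 70.2% and 88.9%, and the unnumbered exosome value rests on 6 reads in all. The change was -5.99 on the log2 scale (edgeR adjusted p = 4.0e-06). MiR-376c was 4.00% and 3.85% 5p in exosome libraries 1 and 2, with no read of either arm in the unnumbered library, against 77.5%, 64.4% and 51.6% in fibroblasts (log2 -5.45).

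Usage moved from 5p to 3p in miR-410 as well, from 67.2% ± 20.3 5p in fibroblasts to 22.7% ± 12.9 in exosomes (SD, n = 3 each; log2 -3.51). The 3p arm of miR-494 took up still more of its hairpin in exosomes, where 3.01% ± 1.68 of counts were 5p against 14.3% ± 10.5 in fibroblasts. The 5p arm gained in miR-134, from 18.5% ± 15.9 to 54.3% ± 7.45, in miR-487b, from 19.0% ± 11.4 to 85.0% ± 13.2, in miR-369, from 5.38% ± 3.08 to 37.3% ± 4.18, and in miR-412, from 74.3% ± 5.14 to 92.8% ± 2.88 (SD, n = 3 each). The groups did not overlap in any of these. The exosome percentages of miR-487b rest on 8, 10 and 2 reads of both arms, those of miR-369 on 19, 12 and 3, and those of miR-410 on 19, 18 and 12. Without fibroblast libraries 1, 2 and 4 in turn, 3, 2 and 4 member hairpins were called, of only 11, 9 and 11 that passed the count filter. Of all hairpins past it, 40.4%, 48.8% and 42.4% were called in those fits. MiR-376a was called in all 6 fits that left out 1 library. MiR-412 was not called without exosome library 1 or without exosome library 2, and miR-494 not without exosome library 2. In the fits without a fibroblast library miR-494-5p did not pass the filter, so that the miR-494 hairpin was not tested there.

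**Figure D5:**
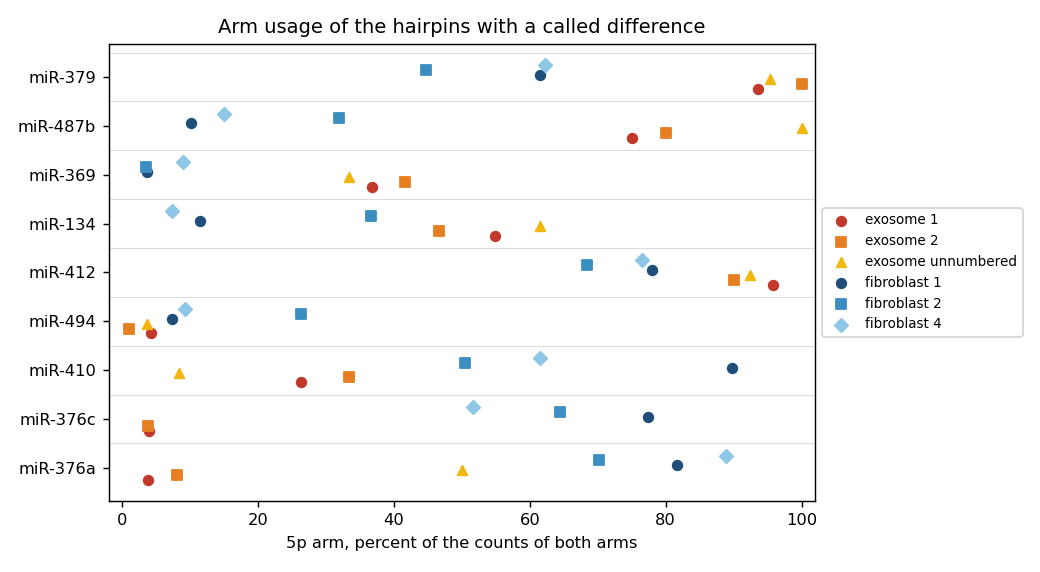
Percent of the counts of both arms that came from the 5p arm, 1 point per library, for the 9 hairpins with a called difference. Exosome and fibroblast points are separate in each row, to the right for miR-379, miR-487b, miR-369, miR-134 and miR-412 in exosomes and to the left for miR-494, miR-410, miR-376c and miR-376a.

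The exosome libraries differed among themselves, in the members as in other miRNAs. Among the 37 members with 20 or more exosome reads, the count in the unnumbered library over the mean of libraries 1 and 2 ran from 0 to 1.55, with a median of 0.296, and over all 346 such miRNAs the median was 0.391. The same ratio was 0.728 for totals without miR-873-3p and 0.357 for TMM-scaled library sizes. It was under 0.2 for 11 members (29.7%, against 26.9% of all 346), among them miR-376a-3p (0.0312), miR-299a-3p (0.0441), miR-485-5p (0.0672), miR-154-3p (0.0851) and the 3p arm of miR-376c at 0. It was 0.8 or more for another 11 (29.7%, against 27.2% of all 346), among them miR-412-5p (0.866), miR-494-3p (0.981), miR-379-5p (1.04), miR-376b-3p (1.11), miR-382-5p (1.23) and miR-411-5p (1.55). Across members the rank correlation of CPM was 0.87 between exosome libraries 1 and 2 and 0.61 and 0.64 between each of them and the unnumbered one, against 0.80 to 0.94 between fibroblast libraries (Spearman, n = 63 members, a description). Without the unnumbered library 12 of the 14 higher members and all 4 lower ones kept their call.

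Fibroblast library 2 stood apart in level. Scaled by total counts, 53 of the 63 members were highest in it, and the median member reached 75.0 CPM there against 26.3 and 28.7 in libraries 1 and 4. Over all 728 miRNAs the medians were 121, 49.9 and 44.1, and after TMM scaling 30 members were highest in library 2. Without this library 13 members were higher and 2 lower, of 32 past the filter, where 19.8% of all tested were higher and 33.7% lower.

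The same chromosomal region holds a proximal group of miRNAs, among them miR-127, miR-433 and miR-434, antisense to Rtl1. Of 23 listed there, 5 were higher and 1 was lower in exosomes, 21.7% and 4.35% of those tested, with a median log2 fold change of 0.18. MiR-673-3p, miR-540-3p, miR-673-5p, miR-341 and miR-770-5p were the higher ones, with log2 values of 2.75, 2.35, 2.34, 2.17 and 2.16, and miR-665 the lower one (log2 -2.60). MiR-673-3p had 395 counts in exosome library 1 but 14 and 7 in the others. The X-linked miR-322/miR-503 cluster, another run of hairpins active in fibroblasts, had 1 of 10 higher and 5 lower, with a median of -1.59. Of 7 listed miRNAs of the imprinted Sfmbt2 intron 3 passed the filter and none was called, with a median of -1.70. Differences between these groups and the miR-379/miR-410 cluster were not tested.

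Over the 6 libraries the miRNAs most like miR-379-5p in log2(CPM + 1) were miR-3568 (Pearson r = 0.998), miR-10a-3p (0.996), miR-503-5p (0.992), miR-3552 (0.991) and miR-494-3p (0.990), of which miR-494-3p is a member of the same cluster. These values are a description over 6 libraries in 2 groups, chosen for their likeness out of 698 miRNAs.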

How the data were processed

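Read counts for each mature miRNA, deposited by the authors as whole numbers without normalization, were the input of all main tests. The authors' other deposited table gives a normalized signal per miRNA and library. For the exosome libraries and fibroblast library 4 its values show that the reads of a library were scaled by a single factor. In these libraries 100% of its values were within 0.01 of whole reads, 99.3% to 99.8% of the raw totals. Per the file headers, the authors' deposited comparison holds a fold ratio with its log2, and a p-value before and after adjustment. The submitters' processing notes list CASAVA 1.8.2, cutadapt 1.2.1, DESeq and build rn5. The aligner, the counting rule and the annotation: not given in the sources used here. A row named rest, 63.1% to 84.4% of the normalized reads, names no miRNA and stayed out of tests.

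Counts were tested with edgeR 4.0.16 (R 4.3.3): TMM, filterByExpr (minimum count 10, minimum total 15), quasi-likelihood test on group, two-sided, 698 of 728 miRNAs tested, threshold 0.05. The filter's level was 7.81 CPM and the biological coefficient of variation 54.3%. SE is the log2 fold change over the square root of F. Limma 3.58.1 (pseudocount 16) and DESeq2 1.42.0 were alternatives. The scripts were tested on simulated data. Depth is given as total counts, and the floor of a count of 0 is 3 counts, 0.00250% to 0.00265% of an exosome library.

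The members, lists and tests were chosen with earlier results of these data known. Named were the called members, the 8 most abundant per group, both arms of hairpins with changed usage, and miR-379, miR-410, miR-411, miR-494, miR-376, miR-154 and miR-134; a few others are named by their values. The endothelial, blood, epithelial, liver and neural marker lists had 1 of 2, 1 of 6, 0 of 5, 0 of 1 and 1 of 4 tested miRNAs higher in exosomes and 0 lower.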

Additional observations from a re-analysis of the deposited data

How the results depend on the processing

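Each result was recomputed under other settings; limma on both tables was chosen after seeing the data. The 31 named members tested gave 465 values under other settings, of which 393 kept direction and side of the threshold, 42 lost the call, 13 gained it and 17 changed direction. The counts of higher and lower members were 14 and 4. With total counts 8 were higher, with libraries sized by reads that matched no listed miRNA 7, and with total counts without miR-873-3p 45 with 0 lower. With limma on the normalized values and on scaled raw counts 2 were lower in each, where 18.1% and 17.3% of all tested were. Leaving out 1 library gave 9 to 13 higher and 2 to 4 lower members, the fewest higher without exosome library 2 and the fewest lower without each fibroblast library, where the filter left 402, 359 and 414 miRNAs. Of all miRNAs tested in the fits with 1 library left out, 6.35% to 19.8% were called higher and 11.9% to 33.7% lower. Member hairpins with changed arm usage were 9, and 2 to 10 with 1 library left out, where 24.4% to 48.8% of all hairpins were called. For the fits without a fibroblast library fewer miRNAs passed the filter. The lower members miR-410-5p and miR-487b-3p did not pass it without fibroblast library 1 or without fibroblast library 2, so they were not tested there. Beyond that the cause was not tested.

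With total counts, the log2 values of miR-379-3p and miR-410-3p turned to -0.25 and -0.082. With libraries sized by reads that matched no listed miRNA those of miR-323-5p, miR-379-3p, miR-410-3p, miR-412-3p, miR-485-5p and miR-487b-5p turned to -0.17, -0.64, -0.41, -0.14, -0.21 and -0.18. With total counts without miR-873-3p, those of miR-134-3p, miR-369-3p, miR-376a-5p, miR-376c-5p, miR-667-5p and miR-668 turned to 1.08, 1.64, 0.40, 0.91, 1.502 and 2.23. With 1 library left out miR-379-3p ran from -0.29, without the unnumbered exosome library, to 0.95, without exosome library 2. Of the values in this paragraph that of miR-668 with total counts without miR-873-3p passed the threshold (edgeR adjusted p = 0.0053, up to 0.93 over its settings), and the others did not.

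A fit with a replicate block on the numbers 1 and 2, which both groups share, used 4 libraries and gave 17 higher and 2 lower members. Of all tested, 13.8% were higher and 19.6% lower in it. In this fit the log2 values were -0.24 for miR-379-3p and 0.26 for miR-668. Deviations of same-numbered libraries correlated at -0.10 and 0.17 across miRNAs, so the numbers were not taken to pair the libraries. A count test on reads behind the normalized table was not run, since the step of fibroblast libraries 1 and 2 could not be read from their low values. The shares of the cluster kept their direction in all alternatives run. No share given here uses a total that includes the row named rest. That row held 77.2% to 84.4% of the normalized reads in exosome libraries and 63.1% to 82.4% in fibroblast libraries. Whether the direction holds on that base was not tested. Depth limits mainly the exosome side, where the median member had 26 reads over 3 libraries.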

Other observations

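Relative to miR-873-3p, miR-379-5p had 0.568, 0.617 and 0.579 counts per 1000 in exosome libraries 1, 2 and unnumbered and 1.34, 10.3 and 0.656 in fibroblast libraries 1, 2 and 4. MiR-412-5p had 1.58, 1.48 and 1.24 against 8.08, 83.6 and 8.997, and miR-494-3p 1.33, 1.84 and 1.46 against 10.6, 45.7 and 3.23. MiR-376a-3p had 0.990, 0.921 and 0.0280 per 1000 in the exosome libraries against 2.12, 14.4 and 2.71 in fibroblasts, with a drop in the unnumbered library that the others did not show. On this base every exosome value of these members, called higher above, lay below every fibroblast value. MiR-873-3p took up most exosome counts and few fibroblast counts, so this base lowers the exosome values of every miRNA. How many of all listed miRNAs lay below in the same way was not counted. The order is therefore no result about these members.

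The raw and the normalized deposited tables differed for some members. Of the 62 members with exosome counts, 48 kept 90% or more of them in the reads behind the normalized table and 6 kept under 70%: miR-299b-5p (5.88%), miR-541-3p (37.5%), miR-409b (45.0%), miR-376c-5p and miR-412-3p (50% each) and miR-380-5p (55.6%).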
